A study of Mus musculus with 6 samples.

Results

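The genes of the c-Jun N-terminal kinase (JNK) pathway described here are 10 of the 24421 gene symbols in a count table from 6 mouse neurofibromas, which are benign nerve sheath tumours. They are the 3 JNK kinases Mapk8 (JNK1), Mapk9 (JNK2) and Mapk10 (JNK3), the 3 JNK-interacting protein (JIP) scaffolds Mapk8ip1 (JIP1), Mapk8ip2 (JIP2) and Mapk8ip3 (JIP3), the axonal MAP3 kinases Map3k12 (DLK) and Map3k13 (LZK), and the JNK-activating kinases Map2k4 (MKK4) and Map2k7 (MKK7). The members were chosen by gene symbol, after Mapk genes had been seen to be higher in the miR-155-deficient tumours, so the difference between the groups is given for them as a description and supports nothing by itself. All 10 passed the filter on low counts that left 15604 genes for testing. A gene is said to be called where edgeR's quasi-likelihood test gave an adjusted p under 0.05, with Benjamini-Hochberg adjustment over all genes tested.

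The group miR155KO_Nf1KO held the tumours MiRNC149, MiRNC640 and MiRNC670, and the group Nf1KO held the tumours Nf803, Nf809 and Nf827. All 6 came from Nf1fl/fl; DhhCre mice on a C57BL/6J background, in which Cre recombinase driven by the Dhh promoter removes Nf1, the gene of the Ras inhibitor neurofibromin, in the Schwann cell lineage. The miR155KO_Nf1KO mice carried, in addition, a knockout of the microRNA miR-155, and the stated purpose was to look for its targets by differences in expression. Dhh-driven Cre is used to reach Schwann cells and not neurons. The labels give no age or sex and do not say that each tumour came from its own mouse, so the p-values below measure the spread between these samples. By Xist and Y-linked reads the sexes were unequal between groups, with 2 males and 1 female (MiRNC149) in miR155KO_Nf1KO and 1 male (Nf809) and 2 females in Nf1KO. Column totals ran between 13061129 and 16333181 reads, and Mir155hg, the host transcript of miR-155, had 1 to 5 reads per miR155KO_Nf1KO tumour against 57 to 71 reads per Nf1KO tumour. The 10 Schwann cell markers were all detected in all tumours, with summed levels of 2950 to 3597 CPM in miR155KO_Nf1KO and 2505 to 2644 CPM in Nf1KO, where CPM are reads scaled to a common library size of 1000000.

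JNKs are stress-activated protein kinases that are switched on when MKK4 and MKK7 phosphorylate them, and MAP3 kinases such as DLK and LZK act one step above. In axons, DLK and LZK report damage to the cell body, and JIP scaffolds hold the kinases of the cascade together and tie them to kinesin motors as cargo adaptors. JNK3 is known mainly from the nervous system, whereas JNK1 and JNK2 are made in most tissues.

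Since the study sought miR-155 targets, the 3′ untranslated regions of the members were searched for matches of 7 or 8 bases to the seed region of miR-155-5p, whose seed (bases 2 to 8) is in capitals below, and the 3 matches found are printed in capitals within their surroundings. The microRNA is from RefSeq, at chr16:84714143-84714165 on the plus strand of GRCm38.p6, and the sites are from the longest GENCODE M21 3′ untranslated region of each gene on GRCm38.
mmu-miR-155-5p: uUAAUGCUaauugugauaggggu
Mapk8 site: ttctacctgtAGCATTAtcctgtttcta
Mapk10 site: cctactagctAGCATTAgcagcgacttt
Mapk8ip2 site: ggggtgcatgtGCATTAAggcaaaatat
The Mapk8 site begins at base 1167 of a 4410-base region, the Mapk10 site at base 1682 of 5368, and the Mapk8ip2 site at base 2401 of 2757. The letters searched were AGCATTAA, called the 8mer, or either of the 7mers AGCATTA and GCATTAA within it. The Mapk8 and Mapk10 sites hold AGCATTA, which pairs with bases 2 to 8, whereas the Mapk8ip2 site holds GCATTAA, which pairs with bases 2 to 7 and has an A opposite base 1. A match was present in 3 of the 10 members, and 0 of the 10 held the full 8mer. Of the 14027 tested genes with an annotated 3′ untranslated region, 14.2% held a match and 3.48% held the 8mer. These shares took no account of the length of the regions, which ran from 673 bases (Mapk8ip1) to 5391 bases (Map3k13) among the members. They therefore do not show whether the members hold more matches than other genes of like length. Mapk10 was called higher in the tumours lacking miR-155, Mapk8 and Mapk8ip2 were not called, and Mapk8ip1 and Mapk8ip3, which were called higher, held no match.

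Among the JNK kinases, Mapk10, the neural JNK, had 148.8 CPM in MiRNC149, 136.1 CPM in MiRNC640 and 224.9 CPM in MiRNC670, against 41.6 CPM in Nf803, 81.9 CPM in Nf809 and 23.2 CPM in Nf827. The lowest miR155KO_Nf1KO tumour had 1.66 times the level of the highest Nf1KO tumour, so the groups did not overlap. Its mean was 169.9 ± 48.0 CPM in miR155KO_Nf1KO and 48.9 ± 30.04 CPM in Nf1KO (SD, n = 3 each), a fold of 3.47 (log2 fold change 1.80, SE 0.44). The gene lies at chr5:102907948-103211334 on the minus strand of GRCm38. Its level ranged 1.65-fold between tumours within miR155KO_Nf1KO and 3.54-fold within Nf1KO. In bulk tissue, more cells of a type and more RNA per cell cannot be told apart, here and in all results below.

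Mapk9, at chr11:49846751-49886421 on the plus strand, had 147.9, 143.9 and 156.9 CPM in MiRNC149, MiRNC640 and MiRNC670, against 115, 108 and 114 CPM in Nf803, Nf809 and Nf827. The groups did not overlap and the tumours within each lay close together, with means of 149.6 ± 6.68 CPM in miR155KO_Nf1KO and 112.5 ± 3.95 CPM in Nf1KO (SD, n = 3 each). The log2 fold change was 0.41 (SE 0.10). Mapk8, at chr14:33377898-33447158 on the minus strand, had 67.3, 63.6 and 72.4 CPM in the 3 miR155KO_Nf1KO tumours and 59.1, 63.9 and 54.6 CPM in the 3 Nf1KO tumours. Its groups overlapped, since MiRNC640 lay just under Nf809, and its log2 fold change was 0.19 (SE 0.13).

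**Figure D1:**
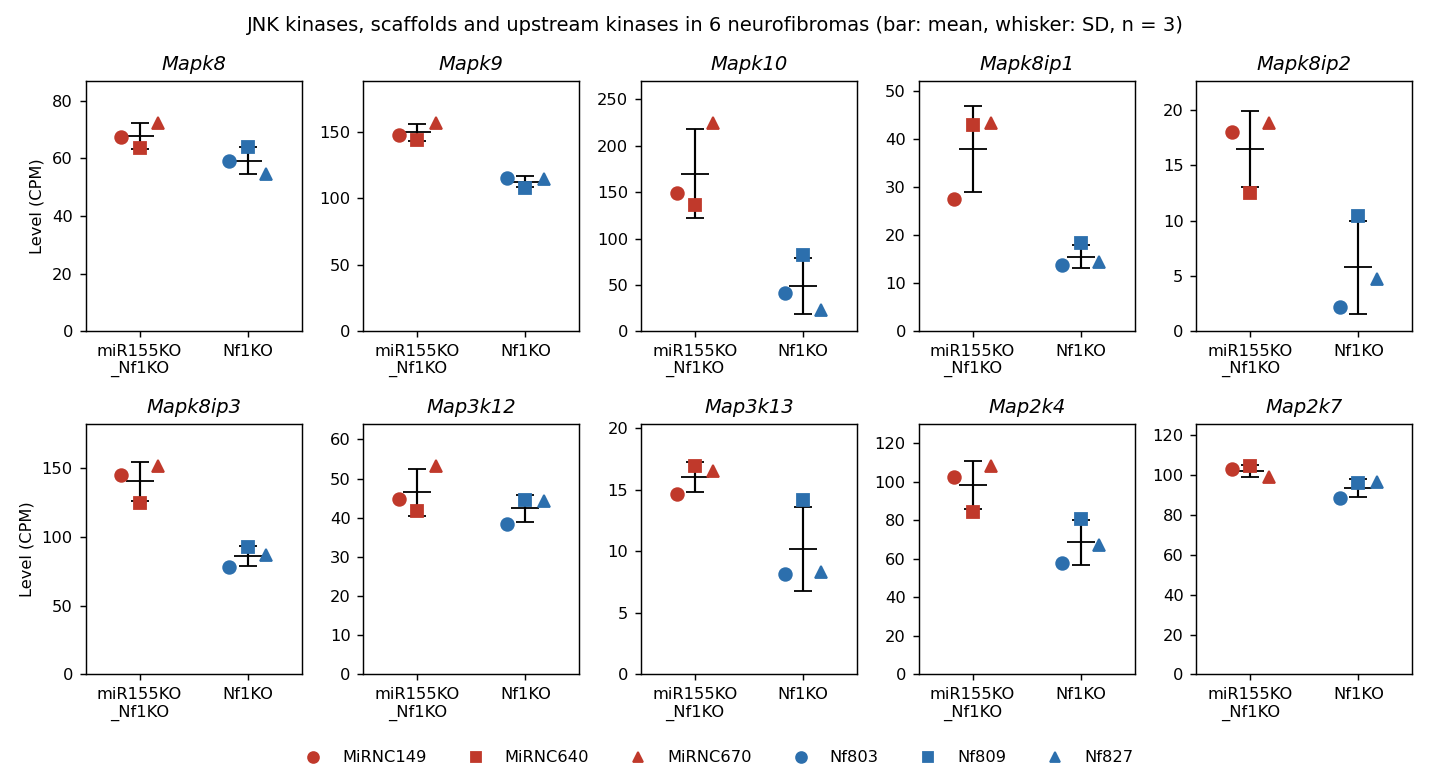
Level of each of the 10 genes in CPM (vertical axis, linear and starting at 0) in the 3 miR155KO_Nf1KO tumours and the 3 Nf1KO tumours, with 1 symbol per tumour, the mean as a bar and the SD as a whisker. Mapk10, Mapk8ip1 and Mapk8ip3 stand clear of the Nf1KO tumours, whereas Mapk8 and Map3k12 overlap.

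Per length of the union of annotated exons, the scale on which different genes can be compared, the 3 JNK genes summed to 43.2 ± 5.66 CPM per kilobase in miR155KO_Nf1KO and 26.2 ± 2.58 CPM per kilobase in Nf1KO (SD, n = 3 each). Mapk10 made up 32.6%, 31.4% and 40.7% of that sum in MiRNC149, MiRNC640 and MiRNC670, against 14.4%, 25.5% and 8.77% in Nf803, Nf809 and Nf827. Its mean share was 34.9 ± 5.08% in miR155KO_Nf1KO and 16.2 ± 8.50% in Nf1KO. Mapk9 had the highest share of the 3 JNK genes in every tumour, at 46.6% to 54.4% in miR155KO_Nf1KO and 55.2% to 71.1% in Nf1KO. The share of Mapk8 was 12.7% to 14.3% in miR155KO_Nf1KO and 19.4% to 20.1% in Nf1KO, lower in miR155KO_Nf1KO although the CPM of Mapk8 overlapped between groups.

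**Figure D2:**
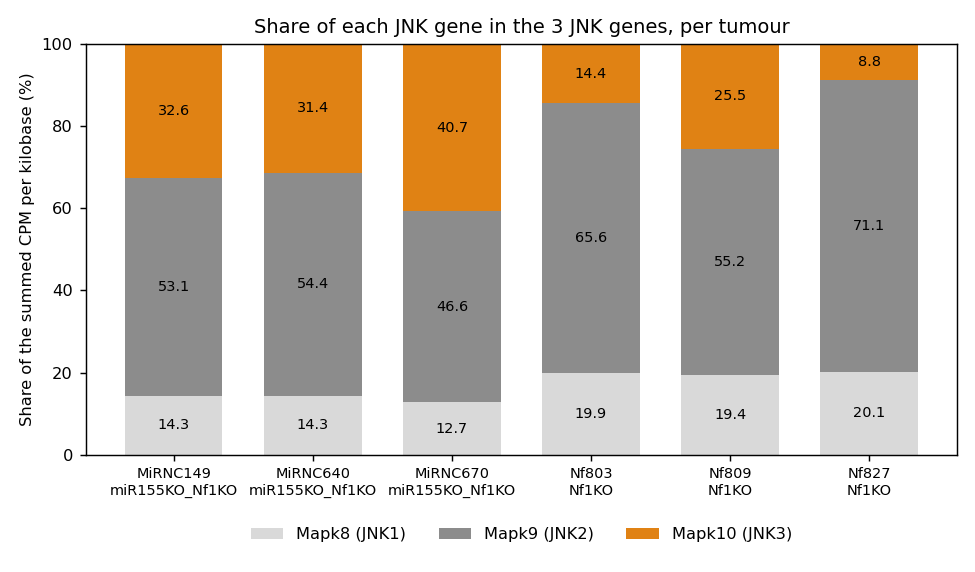
Share of Mapk8, Mapk9 and Mapk10 in the summed CPM per kilobase of the 3 JNK genes (vertical axis, percent), with 1 stacked bar per tumour. The Mapk10 share runs from 31.4% to 40.7% in the miR155KO_Nf1KO tumours and from 8.77% to 25.5% in the Nf1KO tumours.

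Among the JIP scaffolds, Mapk8ip1, which binds JNK and its upstream kinases and links them to kinesin light chain, had 27.5 CPM in MiRNC149, 42.8 CPM in MiRNC640 and 43.3 CPM in MiRNC670, against 13.8 CPM in Nf803, 18.3 CPM in Nf809 and 14.5 CPM in Nf827. MiRNC149 stood below the other two of its group and still had 1.502 times the level of the highest Nf1KO tumour. The means were 37.9 ± 8.98 CPM in miR155KO_Nf1KO and 15.5 ± 2.43 CPM in Nf1KO (SD, n = 3 each), a fold of 2.44 (log2 fold change 1.29, SE 0.23). The gene lies at chr2:92383676-92401263 on the minus strand.

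Mapk8ip3, a scaffold known for moving lysosomes and injury signals along axons, had 145.1, 124.6 and 151.6 CPM in MiRNC149, MiRNC640 and MiRNC670, against 78.2, 92.7 and 86.6 CPM in Nf803, Nf809 and Nf827. Its groups were apart by 31.9 CPM between the nearest tumours, and the tumours of each group differed little. The means were 140.4 ± 14.1 CPM in miR155KO_Nf1KO and 85.9 ± 7.27 CPM in Nf1KO (SD, n = 3 each), with a log2 fold change of 0.71 (SE 0.13). It lies at chr17:24892153-24936977 on the minus strand, and its exons share bases with Eme2 on the same strand (10.7% of the exon union) and with Mrps34 (8.99%) and Nme3 (3.96%) on the opposite strand. Those 3 neighbours had log2 fold changes of 0.29 for Eme2, 0.31 for Mrps34 and -0.14 for Nme3, and none of them was called.

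Mapk8ip2, a scaffold found mainly in neurons and endocrine cells, was the least abundant of the 3 per length in both groups, with 18.03, 12.5 and 18.9 CPM in MiRNC149, MiRNC640 and MiRNC670 and 2.18, 10.4 and 4.75 CPM in Nf803, Nf809 and Nf827. The groups did not overlap, but Nf809 came close to MiRNC640, and the Nf1KO tumours spread 4.77-fold. The log2 fold change was 1.505 with an SE of 0.52, the widest SE of the 10, and the gene was not called. It lies at chr15:89453913-89464468 on the plus strand, and its 30 reads in Nf803 were the lowest count of any member in any tumour. The 3 scaffolds together summed to 20.7 ± 2.10 CPM per kilobase in miR155KO_Nf1KO and 10.3 ± 1.73 CPM per kilobase in Nf1KO (SD, n = 3 each). Mapk8ip3 made up 42.9% to 52.3% of this sum in miR155KO_Nf1KO and 52.5% to 61.6% in Nf1KO.

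Of the axonal MAP3 kinases, Map3k12 (DLK), which triggers the JNK response to axon injury, had 44.7, 41.7 and 53.2 CPM in MiRNC149, MiRNC640 and MiRNC670, against 38.5, 44.5 and 44.2 CPM in Nf803, Nf809 and Nf827. The groups overlapped, and the log2 fold change was 0.13 (SE 0.15). It lies at chr15:102497646-102517064 on the minus strand, and 17.5% of its exon union also belongs to Pcbp2 on the opposite strand, whose log2 fold change was 0.07 (SE 0.11). Map3k13 (LZK), the close relative of DLK at chr16:21794346-21933439 on the plus strand, had 14.7, 16.95 and 16.6 CPM in the 3 miR155KO_Nf1KO tumours and 8.20, 14.2 and 8.30 CPM in the 3 Nf1KO tumours. Nf809 lay 0.523 CPM under the lowest miR155KO_Nf1KO tumour, well above the other Nf1KO tumours, and the gene was not called (log2 fold change 0.65, SE 0.26). Of the Map3k13 exon union, 2.61% is shared with the non-coding gene 1300002E11Rik on the same strand. A further 0.62% is shared with 2610020F03Rik on the opposite strand, which was not among the counted symbols. The more abundant 1300002E11Rik averaged 377 ± 19.8 CPM in miR155KO_Nf1KO and 284 ± 29.5 CPM in Nf1KO (SD, n = 3 each). Its log2 fold change was 0.41 (SE 0.12), and it was not called.

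Of the JNK-activating kinases, Map2k4, which activates both JNK and p38, had 102.5, 84.4 and 108.3 CPM in MiRNC149, MiRNC640 and MiRNC670, against 57.8, 80.9 and 67.1 CPM in Nf803, Nf809 and Nf827. Again MiRNC640 and Nf809 lay next to each other, 3.57 CPM apart, with no overlap of the groups, and the log2 fold change was 0.52 (SE 0.17). Map2k7, which is specific for JNK among the MAP kinases, had 102.8, 104.6 and 98.8 CPM in the 3 miR155KO_Nf1KO tumours and 88.3, 96.1 and 96.5 CPM in the 3 Nf1KO tumours. All 6 values lay within a narrow band, and the log2 fold change was 0.12 (SE 0.11). Map2k4 lies at chr11:65688243-65788297 on the minus strand and Map2k7 at chr8:4238740-4247897 on the plus strand, where 35.2% of its exon union is shared with Gm49320 on the same strand. Gm49320 was not among the counted symbols, so it has no level here.

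Across the 10 genes, 3 (Mapk10, Mapk8ip1 and Mapk8ip3) were called higher and 0 lower by edgeR. Of all 15604 genes tested, 5.22% were called higher and 4.74% lower. Mapk10 stood just inside the threshold (adjusted p = 0.0478 in edgeR) and Mapk9 just outside it (adjusted p = 0.0523). The groups did not overlap for 8 of the 10 genes, all higher in miR155KO_Nf1KO, compared with 16.3% of all genes tested. The fold change was above 0 on the log2 scale for all 10, with a median of 0.59, against a median of 0.01 over all genes tested. At an unadjusted p under 0.05 in edgeR, 7 of the 10 passed, compared with 26.7% of all genes tested. DESeq2 called 5 higher, adding Mapk9 and Mapk8ip2, and called 9.54% of all genes higher.

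These calls depended on which tumours were in the fit. In edgeR, 2 members were called without MiRNC149, 6 without Nf809, and 0 without MiRNC640, MiRNC670, Nf803 or Nf827, each left out alone. Without Nf809 the added members were Mapk8ip2, Map3k13 and Map2k4. In the same fits the calls over all genes moved as well, with 808 genes (5.04%) higher without MiRNC149, 1183 (7.38%) without Nf809, 99 (0.618%) without MiRNC640, and 0 without MiRNC670, Nf803 or Nf827. At an unadjusted p under 0.05, 6 members passed without MiRNC640, beside 21.2% of all genes in that fit, and 4 without MiRNC670, beside 20.2%. The count was 5 without Nf803, beside 20.8% of all genes, and 5 without Nf827, beside 20.3%. Over all 6 of these fits the log2 fold change of Mapk10 ran between 1.46 and 2.40, that of Mapk8ip1 between 1.16 and 1.48, and that of Mapk8ip3 between 0.62 and 0.79.

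Ordered by CPM per kilobase, the JNK-activating kinases Map2k7 and Map2k4 and the JNK kinase Mapk9 led in both groups, and Mapk10 took a different place in each. In miR155KO_Nf1KO the order was Map2k7 (26.7 ± 0.764), Mapk9 (22.0 ± 0.984), Map2k4 (21.1 ± 2.67), Mapk10 (15.3 ± 4.32), Mapk8ip3 (9.65 ± 0.967), Mapk8ip1 (8.15 ± 1.93), Mapk8 (5.92 ± 0.384), Map3k12 (5.18 ± 0.666), Mapk8ip2 (2.89 ± 0.606) and Map3k13 (1.84 ± 0.139 CPM per kilobase; SD, n = 3). In Nf1KO it was Map2k7 (24.4 ± 1.21), Mapk9 (16.6 ± 0.582), Map2k4 (14.7 ± 2.48), Mapk8ip3 (5.90 ± 0.499), Mapk8 (5.17 ± 0.406), Map3k12 (4.72 ± 0.378), Mapk10 (4.39 ± 2.70), Mapk8ip1 (3.34 ± 0.524), Map3k13 (1.17 ± 0.391) and Mapk8ip2 (1.01 ± 0.736 CPM per kilobase; SD, n = 3). Mapk10 was 4th in miR155KO_Nf1KO and 7th in Nf1KO. Of the 9 pairs of neighbours, 5 in miR155KO_Nf1KO and 6 in Nf1KO had overlapping means ± SD, among them Mapk9 with Map2k4 in both groups. Map2k7 stood apart from Mapk9 in both, and in Nf1KO Mapk10 could not be told apart from Map3k12 above it or Mapk8ip1 below it. These places of the first 2 genes depended on the length used. By the length of the longest transcript, Mapk9 came before Map2k7 in miR155KO_Nf1KO, at 31.9 ± 1.43 against 29.0 ± 0.830 CPM per kilobase, and Map2k7 before Mapk9 in Nf1KO, at 26.6 ± 1.31 against 24.0 ± 0.844 CPM per kilobase (SD, n = 3 each). By the same length, the level of Mapk8 was 11.8 CPM per kilobase in miR155KO_Nf1KO and 10.3 CPM per kilobase in Nf1KO, and that of Mapk8ip3 was 19.3 CPM per kilobase in miR155KO_Nf1KO and 11.8 CPM per kilobase in Nf1KO.

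Marker lists of several cell types also differed between the groups. All 17 sensory neuron markers had higher fitted values in miR155KO_Nf1KO, 9 of the 17 were called higher and 0 lower, and their median log2 fold change was 1.74. Their summed level was 5783 to 9311 CPM in miR155KO_Nf1KO and 1424 to 2906 CPM in Nf1KO, and none was at 0 in any tumour. Neurofilament light chain (Nefl) averaged 2555 ± 732 CPM in miR155KO_Nf1KO and 708 ± 303 CPM in Nf1KO, the synaptic protein Snap25 averaged 2138 ± 461 CPM in miR155KO_Nf1KO and 479 ± 171 CPM in Nf1KO, and neurofilament medium chain (Nefm) averaged 1170.2 ± 274 CPM in miR155KO_Nf1KO and 298 ± 112 CPM in Nf1KO (SD, n = 3 each). The part of this neuronal RNA in the member differences was not tested.

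Myelinating Schwann cell markers were also higher, with 8 of 10 called higher, a median log2 fold change of 1.47 and none at 0. They summed to 10241 to 21500 CPM in miR155KO_Nf1KO and 5464 to 6408 CPM in Nf1KO. The membrane protein Pmp22 averaged 10426 ± 4135 CPM in miR155KO_Nf1KO and 4086 ± 347 CPM in Nf1KO, and myelin basic protein (Mbp) averaged 1952 ± 586 CPM in miR155KO_Nf1KO and 817 ± 115 CPM in Nf1KO (SD, n = 3 each). Among the 12 macrophage markers 6 were called lower, with summed levels of 465 to 967 CPM in miR155KO_Nf1KO and 1366 to 2573 CPM in Nf1KO, and 4 of 7 fibroblast markers were called lower, with summed levels of 5123 to 6662 CPM in miR155KO_Nf1KO and 11509 to 12216 CPM in Nf1KO. None of the macrophage or fibroblast markers was at 0. Skeletal muscle markers, of which 0 of 8 were called, differed between tumours of the same group, from 191 to 2151 CPM in miR155KO_Nf1KO and from 5.89 to 2336 CPM in Nf1KO, with Acta1, Myh4 and Tnnc2 at 0 in at least 1 tumour. All 6 adipocyte markers had positive log2 fold changes, with a median of 2.12, but 0 of the 6 were called by edgeR or had an unadjusted p under 0.05. They summed to 76.1 CPM in MiRNC149 and 1133 CPM in MiRNC640, and to 31.4 to 189 CPM in Nf1KO, with Lep at 0 in 1 tumour. Of 6 cell cycle markers 4 were called lower, with a median log2 fold change of -1.52 and summed levels of 54.7 to 81.7 CPM in miR155KO_Nf1KO and 163 to 210.3 CPM in Nf1KO. Satellite glia markers had 2 of 6 called higher (Ednrb and Fabp7), 4 of 6 positive and a median log2 fold change of 0.19. Fabp7 is also among the Schwann cell markers. Kcnj10, of the satellite glia list, was lower with no overlap of the groups, at -0.84 (SE 0.23), but was not called. Perineurium markers had 1 of 4 called lower and endothelium markers 0 of 5 called, and no marker of these 3 lists or of the cell cycle was at 0. The part of these lists in the member differences was not tested.

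Nf809 and MiRNC670 were each the highest tumour of their group for most members. In Nf1KO, Nf809 was the highest of the 3 tumours for 8 of the 10 members for 17 of 17 neuron markers and for 8 of 8 skeletal muscle markers, compared with 2 of 10 myelinating Schwann cell markers and 37.95% of all genes tested. In miR155KO_Nf1KO, MiRNC670 was the highest for 8 of 10 members, 13 of 17 neuron markers and 8 of 8 skeletal muscle markers, against 0 of 10 myelin markers and 33.9% of all genes. MiRNC640 was the lowest of its group for 7 of 10 members, 16 of 17 neuron markers, 11 of 12 macrophage markers, 0 of 8 skeletal muscle markers and 0 of 10 myelin markers, compared with 37.6% of all genes tested. The full order of the 3 tumours in the mean of the neuron markers was shared by 7 of 10 members in miR155KO_Nf1KO and by 2 of 10 (Mapk8 and Mapk10) in Nf1KO. Of the neuron markers themselves, 12 of 17 shared it in miR155KO_Nf1KO and 13 of 17 in Nf1KO. For skeletal muscle markers the counts were 0 of 8 in miR155KO_Nf1KO and 7 of 8 in Nf1KO. The share of all genes with this full order was not computed. These counts are a description, since genes of 1 tumour share its library.

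**Figure D3:**
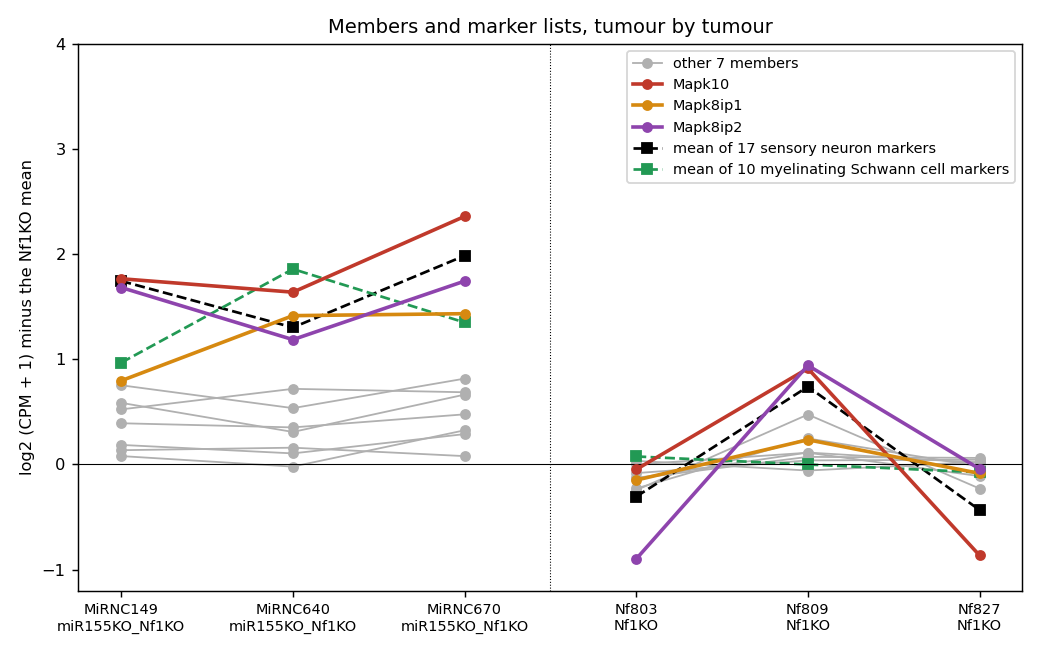
Level of each gene as log2(CPM + 1) minus its Nf1KO mean (vertical axis) in each of the 6 tumours, for Mapk10, Mapk8ip1 and Mapk8ip2 in colour, the other 7 members in grey, and the means of 17 sensory neuron markers and 10 myelinating Schwann cell markers as dashed lines. Mapk10, Mapk8ip2 and the mean of the neuron markers had their highest Nf1KO value in Nf809 and their lowest miR155KO_Nf1KO value in MiRNC640. The same held for Mapk8, Mapk8ip3, Map3k12 and Map2k4, drawn in grey. Mapk8ip1 was also highest in Nf809 within Nf1KO but lowest in MiRNC149 within miR155KO_Nf1KO.

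To set the members beside the neuronal RNA of the same tumour, the mean log2(CPM + 1) of the 17 neuron markers was subtracted from the log2(CPM + 1) of each member. For Mapk10 the difference was 0.28, 0.59 and 0.63 in MiRNC149, MiRNC640 and MiRNC670, against 0.51, 0.43 and -0.18 in Nf803, Nf809 and Nf827. The groups then overlapped, and the spread over all 6 tumours was 0.81 log2 units, compared with 3.22 for Mapk10 alone. The same step narrowed the spread of Mapk8ip2 to 0.98, against 2.64 alone, and that of Mapk8ip1 to 1.30, against 1.58 alone. For the other 7 members the spread became wider. Map3k12, for example, lay at -1.43, -1.09 and -1.43 relative to the neuron markers in MiRNC149, MiRNC640 and MiRNC670, against 0.40, -0.44 and 0.73 in Nf803, Nf809 and Nf827, a spread of 2.16 compared with 0.46 alone. Mapk8ip3, which was called higher, had a spread of 1.62 after the subtraction and 0.95 alone. The mean of the neuron markers was itself 1.68 log2 units higher in miR155KO_Nf1KO than in Nf1KO. Subtraction therefore narrows a member whose log2 fold change is near that value and widens one whose change is small. No other marker list was subtracted, and the part of the neuronal RNA in the member differences was not tested.

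The promoter windows of the members, from 250 bases before to 50 bases after the annotated start in RefSeq on GRCm38.p6, were searched on both strands for the AP-1 site TGANTCA, to which Jun binds, the cyclic AMP response element (CRE) TGACGTCA, the first part of the RE1 element, TTCAGCACC, and the Egr site GCGTGGGCG. There were 14 windows for 9 of the members, and Mapk8ip1 was not among them. The CRE was found in 1 window, 1 of the 2 of Mapk10, printed here as the promoter of the member with the largest difference, at chr5:103211285-103211584 on the minus strand, with the CRE in capitals beginning 29 bases before the start.
Mapk10 promoter: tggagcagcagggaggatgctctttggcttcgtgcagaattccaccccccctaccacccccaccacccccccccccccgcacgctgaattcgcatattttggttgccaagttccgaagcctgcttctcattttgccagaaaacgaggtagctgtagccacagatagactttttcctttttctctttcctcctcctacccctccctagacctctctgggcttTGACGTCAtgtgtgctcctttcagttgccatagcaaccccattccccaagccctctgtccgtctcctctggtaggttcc
Of the 32851 promoter windows in the RefSeq table, 1.79% held the CRE. An AP-1 site was found in 1 of the 2 Map2k7 windows, and in 7.81% of all windows. The RE1 part and the Egr site were in none of the 14 windows, and among all windows 0.371% held the RE1 part and 0.612% the Egr site. A match of letters is a description and not evidence that a factor binds there.

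The other genes of the JNK network, 80 genes in 8 lists, were called in some branches and not in others. As used here, the JNK network includes a list of 15 genes from the neighbouring ERK, p38 and other MAP kinase branches. Of the 79 found in the table, 76 were tested, 13 were called higher and 5 lower by edgeR over all genes, and their median log2 fold change was 0.07. Over all genes tested, 5.22% were called higher and 4.74% lower, shares that also stand beside the counts of each list below. In either direction, 23.7% of the 76 were called (18 genes), against 9.96% of all genes tested. Each of these 18 calls was kept in at most 3 of the 6 fits that left out 1 tumour, and 3 (Map3k9, Map3k5 and Mapk14) in none. With sex as a covariate in edgeR, 9 of the 18 were no longer called, namely Map3k9, Map3k5, Arrb2, Bcl2l11, Stmn2, Lrp8, Fgf13, Mapk14 and Mapk4, at adjusted p between 0.0509 and 0.0918, all with the same direction.

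The list with the most calls was that of the motors, cargoes and channel partners of the JIP scaffolds. In it, 6 of 11 were called higher and 0 lower, 9 of 11 had a positive log2 fold change, and the median was 0.96. App, at -0.39 (SE 0.11, adjusted p = 0.0677 in edgeR), was lower with no overlap of the groups but was not called. The same held for Arf6, at -0.71 (SE 0.22, adjusted p = 0.0931 in edgeR). Kif5a, a neuronal kinesin-1 heavy chain, had 391, 298 and 455 CPM in MiRNC149, MiRNC640 and MiRNC670, against 98.4, 159 and 81.5 CPM in Nf803, Nf809 and Nf827 (log2 fold change 1.76, SE 0.28). Kif5c, another neuronal kinesin-1 heavy chain, rose by 1.78 (SE 0.31) on the log2 scale, and Klc1, the kinesin light chain that JIP1 binds, by 0.88 (SE 0.16). The fibroblast growth factor homologous factors Fgf12, at 2.10 (SE 0.38), and Fgf13, at 1.52 (SE 0.35), which bind sodium channels and JIP2, rose as well, as did the reelin receptor Lrp8, at 1.34 (SE 0.28). Within Nf1KO, Nf809 was the highest tumour for 7 of these 11 genes, and within miR155KO_Nf1KO, MiRNC640 was the lowest for 9 of 11, places that these tumours also held for most neuron markers, and the part of the neuronal RNA in these calls was not tested.

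Among 17 tested JNK substrates and genes of the DLK injury response, 4 were called higher and 1 lower. A positive log2 fold change was found for 10 of the 17, and the median was 0.08. Map1b, a microtubule-associated protein that JNK phosphorylates, averaged 8465 ± 1819 CPM in miR155KO_Nf1KO and 3059.8 ± 875 CPM in Nf1KO (log2 fold change 1.47, SE 0.25). Stmn2, a tubulin-binding JNK substrate, averaged 249.8 ± 60.4 CPM in miR155KO_Nf1KO and 94.0 ± 44.9 CPM in Nf1KO (log2 fold change 1.41, SE 0.34). The other two were the growth cone protein Gap43 (log2 fold change 1.27, SE 0.22) and doublecortin (Dcx), with 8.32 ± 2.42 CPM in miR155KO_Nf1KO and 1.34 ± 0.750 CPM in Nf1KO (log2 fold change 2.62, SE 0.50). All 4 are proteins of axons and growth cones, and the part of the neuronal RNA in their rise was not tested. The gene called lower was Bcl2l11, which encodes the death-promoting protein Bim. It had 43.1 ± 8.13 CPM in miR155KO_Nf1KO and 76.0 ± 8.58 CPM in Nf1KO (SD, n = 3 each), a log2 fold change of -0.82 (SE 0.18). Jun, the transcription factor for which JNK is named, was looked up after its values were seen. It had 82.4, 70.6 and 78.2 CPM in MiRNC149, MiRNC640 and MiRNC670, against 118, 100.5 and 99.4 CPM in Nf803, Nf809 and Nf827, and its log2 fold change of -0.46 (SE 0.13) did not pass (adjusted p = 0.0660).

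Upstream of JNK, most kinases other than DLK and LZK had a log2 fold change below 0. Of 11 other MAP3 kinases, 3 had a positive log2 fold change and the median was -0.30. Map3k9 (MLK1), a mixed-lineage kinase of the family that includes DLK, rose, with 56.4 ± 12.6 CPM in miR155KO_Nf1KO and 30.7 ± 5.18 CPM in Nf1KO (log2 fold change 0.88, SE 0.22). Map3k5 (ASK1), a kinase activated by oxidative stress, fell, with 29.97 ± 1.39 CPM in miR155KO_Nf1KO and 44.0 ± 3.30 CPM in Nf1KO (log2 fold change -0.55, SE 0.14). Of 7 MAP4 kinases 1 was called lower, Map4k1 (HPK1), which is known from blood cells. It had 2.37 ± 0.315 CPM in miR155KO_Nf1KO and 12.0 ± 5.76 CPM in Nf1KO (SD, n = 3 each), a log2 fold change of -2.34 (SE 0.42). Its direction was that of the macrophage markers, whose part in this was not tested.

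Other JNK scaffolds and binding proteins showed 1 call among 5, β-arrestin 2 (Arrb2), which can hold JNK3 with its activators. It fell, with 19.2 ± 5.71 CPM in miR155KO_Nf1KO and 40.4 ± 10.04 CPM in Nf1KO (log2 fold change -1.08, SE 0.27; SD, n = 3 each). None of the 6 regulators of DLK was called by edgeR, 4 of the 6 had an unadjusted p under 0.05 (26.7% of all genes tested did), 5 had positive values, and the median log2 fold change was 0.50. The closest to the threshold were Fbxo45, a partner of the ubiquitin ligase that lowers DLK, at 0.53 (SE 0.14, adjusted p = 0.0574), and Zdhhc17, a palmitoyl transferase acting on DLK, at 0.46 (SE 0.14, adjusted p = 0.0741), both called by DESeq2. None of the 6 JNK phosphatases was called by edgeR or had an unadjusted p under 0.05. The 2 with the smallest p, not called by DESeq2 either, were Dusp8 at 0.48 (SE 0.30) and Dusp19 at 0.21 (SE 0.17).

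**Figure D4:**
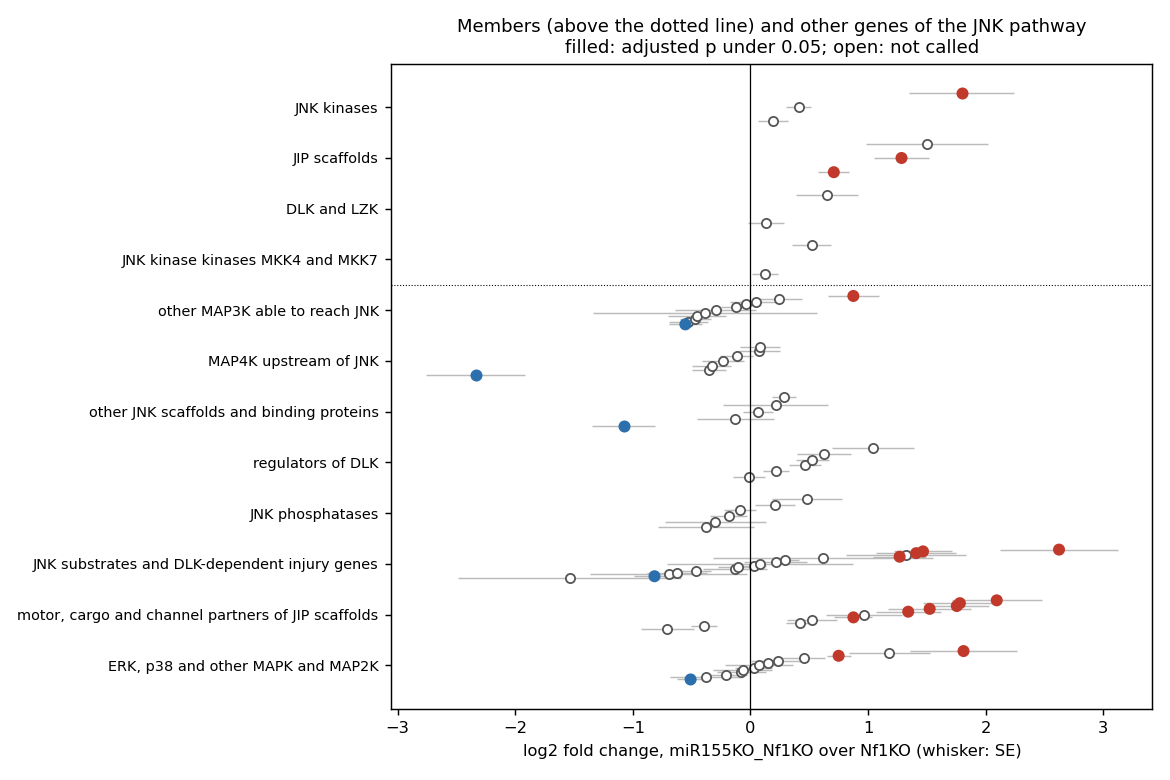
Log2 fold change of miR155KO_Nf1KO over Nf1KO (horizontal axis, whiskers show the SE), grouped by list, with filled points for an adjusted p under 0.05. The 10 members are above the dotted line. Below it are the 76 other tested genes of the JNK network lists, with the ERK, p38 and other MAP kinase list among them. Red points are the 13 wider-list genes and 3 members called higher, blue points the 5 genes called lower, and the motor and cargo partners hold 6 of the red points.

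In the neighbouring ERK, p38 and other MAP kinase branches, 2 of 13 tested genes were called higher and 1 lower. Mapk3 (ERK1), a kinase at the end of the Ras pathway, had 255, 254 and 278 CPM in MiRNC149, MiRNC640 and MiRNC670, against 155.5, 154 and 158 CPM in Nf803, Nf809 and Nf827, with a log2 fold change of 0.75 (SE 0.10) and an adjusted p of 0.0201 in edgeR. It had the smallest adjusted p of the wider lists and tumours within each group lay close together. Mapk4 (ERK4), an atypical MAP kinase, rose with 8.44 ± 3.603 CPM in miR155KO_Nf1KO and 2.39 ± 1.07 CPM in Nf1KO (log2 fold change 1.81, SE 0.45). Mapk14 (p38α) fell, with 152 ± 11.3 CPM in miR155KO_Nf1KO and 216 ± 17.3 CPM in Nf1KO (log2 fold change -0.51, SE 0.12; SD, n = 3 each). Mapk13 and Mapk15 were too low to be tested.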

How the data were processed

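RNA sequencing counts of 6 tumours were analysed, grouped by the sample labels. The authors deposited raw counts of reads per gene, as whole numbers in 1 table. The tools were HISAT2 2.0.5 and featureCounts 1.5.2 with genome build mm10, per the submitters' processing notes. For annotation and strand setting the sources used here give nothing, so reads of overlapping genes may have been shared or dropped. Per the labels, RNA came from a Qiagen kit and libraries from an Illumina Nextera XT kit.

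Counts were tested with edgeR 4.0.16 in R 4.3.3 (quasi-likelihood test, two-sided, filterByExpr with a minimum count of 10 and a minimum total of 15, TMM scaling, group as the only term), with Benjamini-Hochberg adjustment over 15604 genes and a call at adjusted p under 0.05. Each SE was derived back from the F statistic. CPM values use the TMM-scaled library size. At totals of 13061129 to 16333181 reads, replicate counts differed by at least 23.2 times the Poisson variance, averaged over genes with the lowest counts left out. For those genes as a whole, the spread between tumours exceeded counting error. Counting error weighs more for genes with few reads, such as Mapk8ip2 with 30 reads in Nf803. The fits were tested on simulated data with known changes. Exon unions, overlaps and 3′ untranslated regions came from GENCODE M21 on GRCm38.

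The members and gene lists were chosen with earlier results of these data known. Genes were named by a rule: the 10 members, every called gene of the JNK network lists or, where none was called, the 2 with the smallest p, and the 3 neuron and 2 myelin markers with the highest mean level. The alternatives were DESeq2 size factors and upper quartile scaling in edgeR, no low-count filter, a CPM floor of 1 in 3 tumours, limma 3.58.1 voom, DESeq2 1.42.0, sex read from Xist and Y-linked counts as a covariate, each tumour left out in turn, and MiRNC670 and Nf809 left out together. A planned comparison of protein sequences was not run.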

Additional observations from a re-analysis of the deposited data

How the results depend on the processing

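All 10 members kept a positive log2 fold change in all 14 other fits, and no gene named by the rule from the JNK network lists changed direction. The direction of the named markers and of genes outside the naming rule was not recorded in these fits. The count of members called higher was 3 with DESeq2 size factors, upper quartile scaling, no low-count filter, voom and sex as a covariate, and 4 (adding Mapk9) with a CPM of at least 1 in 3 tumours. It was 5 with DESeq2, which called 1489 genes higher and 1473 lower in all, and 1 (Mapk10) without MiRNC670 and Nf809. With other scaling, another filter or voom, the genes called higher ran from 762 of 15604 (upper quartile scaling) to 850 of 15052 (CPM floor). Without MiRNC670 and Nf809, 568 of 15753 genes were called higher. A fit with sex as a covariate called 534 genes higher, against 815 without it. It ended 9 of the 18 calls in the wider JNK network lists, with the ERK and p38 branches included, against 0 to 3 for the other changes of scaling, filter or tool. Leaving out 1 tumour gave 0 to 6 members called higher, 0 to 1183 genes called higher and 0 to 1059 called lower. The 3 edgeR fits with no call had 3240 to 3335 genes at an unadjusted p under 0.05. Each fit that leaves out a tumour has fewer samples, and no cause beyond that was tested. No scaling moved the median of all genes by more than 0.1 on the log2 scale. With the longest transcript as length, an alternative chosen after seeing the data, the mean share of Mapk8 among the JNK genes was 17.6% in miR155KO_Nf1KO and 25.1% in Nf1KO, and the Mapk10 share was 34.6% in miR155KO_Nf1KO and 15.9% in Nf1KO. No paired analysis was possible because the tumours of the groups share no replicate numbers. With 3 tumours a group, small differences such as that of Mapk8 could not be resolved from the spread between tumours.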

Other observations

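Several genes outside the naming rule, chosen here after their values were seen, complete the account of the JNK network. Spag9 (JIP4), the relative of Mapk8ip3, averaged 534 ± 25.6 CPM in miR155KO_Nf1KO and 438 ± 22.0 CPM in Nf1KO (SD, n = 3 each), with no overlap of the groups and a log2 fold change of 0.29 (SE 0.10) that did not pass in edgeR (adjusted p = 0.132). The axon-degeneration enzyme Sarm1 averaged 13.8 ± 3.12 CPM in miR155KO_Nf1KO and 6.70 ± 2.69 CPM in Nf1KO, and the axon-survival enzyme Nmnat2 averaged 61.7 ± 18.4 CPM in miR155KO_Nf1KO and 40.0 ± 3.41 CPM in Nf1KO (SD, n = 3 each), and neither passed. The ubiquitous kinesin-1 heavy chain Kif5b averaged 631 ± 62.8 CPM in miR155KO_Nf1KO and 472 ± 25.8 CPM in Nf1KO (SD, n = 3 each), a log2 fold change of 0.42 (SE 0.12), next to 1.76 for Kif5a and 1.78 for Kif5c. The injury-induced factor Atf3 averaged 5.61 ± 0.853 CPM in miR155KO_Nf1KO and 8.66 ± 1.35 CPM in Nf1KO (SD, n = 3 each), with a log2 fold change of -0.63 (SE 0.25) that did not pass.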
